A study of Danio rerio with 15 samples.

Results

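Immediate early genes and ppp1r15a were followed in the liver of male zebrafish with the AB genetic background, on arrays that measure the mRNA of many genes at once. The set held 9 genes, which are jun, junba, junbb, fosab, atf3, egr1, myca, mycb and ppp1r15a, out of 8793 genes with a named probe set. A probe set is a group of short probes that reads the transcripts of a gene, and a probe set was taken where its annotation gave a single symbol and that symbol was one of the 9. This rule gave 17 of the 15502 probe sets for zebrafish transcripts, with 4 each for fosab and ppp1r15a, 2 each for jun and egr1, and 1 for each other gene. The genes were chosen from these same arrays, with their differences between 0.1 and 1.0 Gy already known. Those dose differences are therefore given as a description with no test, and tests were kept for comparisons that weigh both doses equally.

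The 15 arrays fell into 5 groups of 3, and the RNA of each came from a pool of livers of 2 males aged 16 weeks. Controls received no radiation. The long-term response groups (embryo 0.1 Gy and embryo 1.0 Gy) received 137Cs γ-rays at 24 hours post fertilization and were examined at 16 weeks, while the acute response groups (adult 0.1 Gy and adult 1.0 Gy) were irradiated at 16 weeks, over the whole body, and examined 4 hours later. The acute groups used 12 males of the control cohort, and no sham irradiation is described. Each cohort was raised as a single batch, so errors measure the spread between liver pools of a batch. Any other difference between the long-term cohorts and the control cohort cannot be told apart from irradiation. The record is inconsistent for 4 arrays. Control replicates 2 and 3 carry a source name that fits adult 0.1 Gy, adult 0.1 Gy replicates 1 and 2 carry one that fits the controls, and their title, dose and timing entries were followed here. The hepatocyte marker fabp10a, a fatty acid-binding protein gene of liver, was at 14.97 or more on the log2 scale on every array. Of the 16 hepatocyte probe sets the lowest value was 12.76 or more for all but apoa1a (10.32) and the 2 of c3a.1 (3.60 and 10.24), and array medians lay between 5.01 and 5.14. The marker lists of other cells moved less evenly. The mean of exocrine pancreas markers ran from 8.99 to 12.34 over the arrays, and that of muscle markers from 4.78 to 7.56.

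Immediate early genes are transcribed within minutes of a signal at the cell surface or of a stress, from factors already present in the cell, and their mRNAs are short-lived. Jun, Fos and ATF proteins pair through leucine zippers to form AP-1 transcription factors, Egr1 is a zinc finger factor, and Myc proteins pair with Max to drive growth genes. In mammals PPP1R15A (GADD34) brings protein phosphatase 1 to the translation factor eIF2α and removes the phosphate that stress kinases place on it, so that protein synthesis resumes. In liver, AP-1 and Myc genes are well known for their early rise after partial hepatectomy in rodents.

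Values are log2 expression as deposited. A filter required an interquartile range of 0.2 or more across the arrays, which all 17 probe sets passed, so they were tested among 8634 in all. The test was limma, a linear model that borrows information on the spread from all probe sets. To be called, a probe set needed an adjusted p under 0.05 both in the F-test of any difference among the 5 groups and in the comparison itself. The dose differences also enter that F-test. Errors are the standard error of this fit for differences and the SD over 3 arrays for group means. The long-term and acute comparisons share the same 3 control arrays. In RNA from whole liver, fewer cells of a type and less RNA per cell cannot be told apart.

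In the acute response groups ppp1r15a and both junb genes rose, and atf3 fell by a smaller amount. The 6 probe sets called higher belonged to 3 genes (junba, junbb and all 4 probe sets of ppp1r15a), against 14.6% of all tested probe sets called higher. The 1 called lower was atf3, against 25.0% of all tested called lower. The median difference of the 17 was 1.15 on the log2 scale, compared with 0.011 over all tested, and 13 of the 17 differences were above 0. Probe sets of a gene read the same RNA, so these counts are not of independent measurements.

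**Figure D1:**
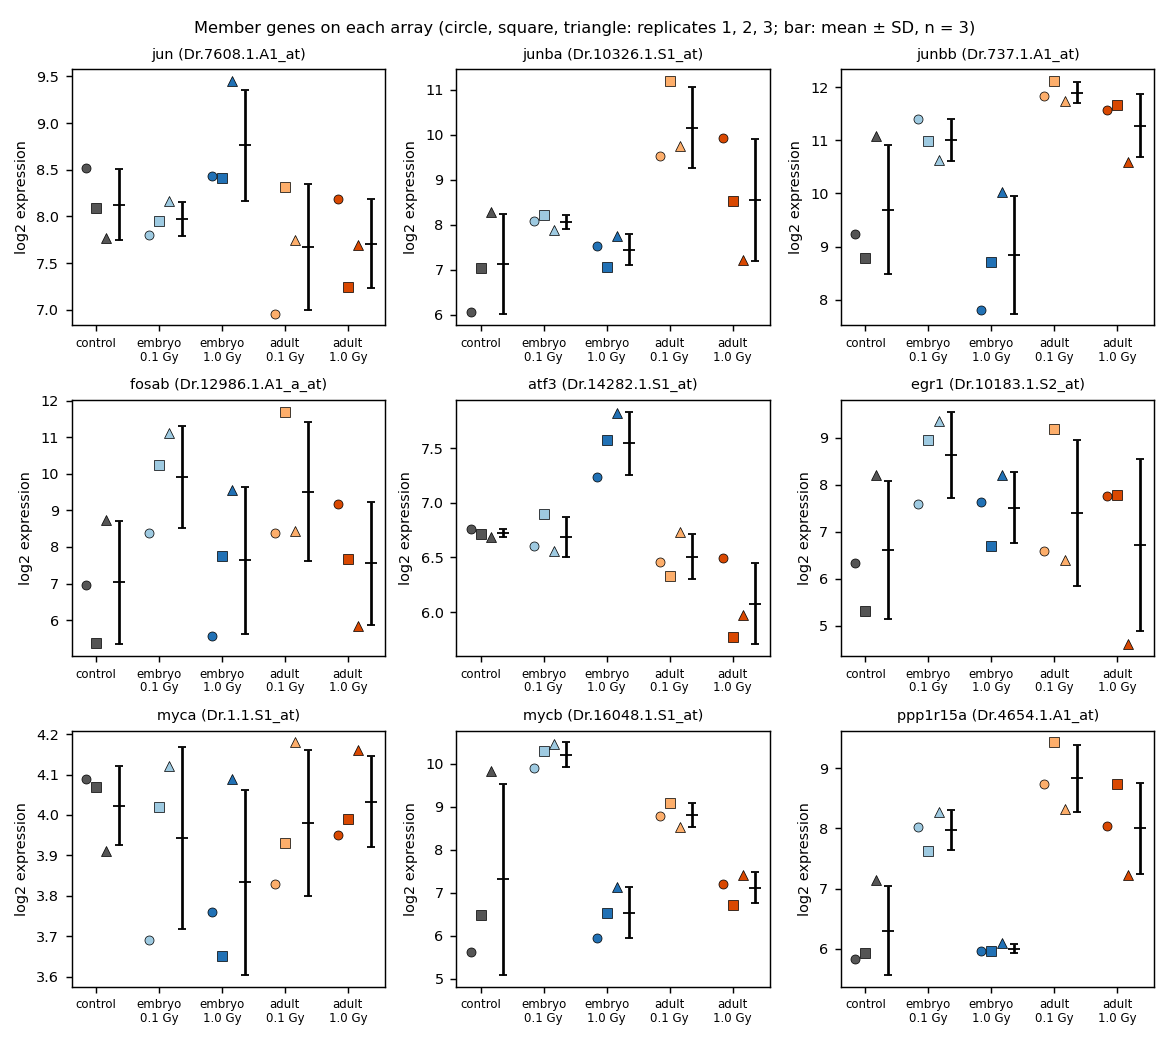
Log2 expression (vertical axes, on a separate scale for each gene) on the 3 arrays of each of the 5 groups, for the probe set with the highest mean of each of the 9 genes; symbols mark replicates 1, 2 and 3, and bars show the group mean ± SD. The 6 adult arrays lie above all 3 controls for ppp1r15a, and control replicate 3 stands above the other controls for mycb, at 9.84.

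On the probe set Dr.4654.2.S1_at, ppp1r15a read 4.93, 5.26 and 6.72 on the control arrays. It read 8.16, 8.77 and 7.73 on the adult 0.1 Gy arrays and 7.47, 7.97 and 6.90 on the adult 1.0 Gy arrays. All 6 adult arrays lay above all 3 controls, although the lowest adult array was close to the highest control. The acute difference was 2.19 ± 0.35 (4.57-fold, adjusted p = 0.00021, limma). The other ppp1r15a probe sets rose by 2.12 ± 0.34, 1.64 ± 0.27 and 1.89 ± 0.31 (adjusted p = 0.00022, 0.00029 and 0.00028), and in each of them too the 6 adult arrays were all above the 3 controls. These calls were kept in all 15 fits that left out 1 array, in which the difference of Dr.4654.2.S1_at ran from 1.84 to 2.73.

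The junba gene, which encodes a Jun family partner of Fos proteins, read 6.07, 7.05 and 8.28 in controls. It read 9.53, 11.19 and 9.74 in adult 0.1 Gy livers and 9.93, 8.52 and 7.22 in adult 1.0 Gy livers. Every adult 0.1 Gy array was above all controls, whereas the lowest adult 1.0 Gy array lay inside the control range. The acute difference was 2.22 ± 0.54 (4.67-fold, adjusted p = 0.0043). Its paralogue junbb read 9.23, 8.78 and 11.08 in controls, 11.84, 12.12 and 11.74 in adult 0.1 Gy livers and 11.57, 11.67 and 10.60 in adult 1.0 Gy livers. Here 5 of the 6 adult arrays exceeded the highest control. The rise of junbb was 1.89 ± 0.49 (3.72-fold, adjusted p = 0.006), and it was 2.59 when control replicate 3, the high one, was left out. Neither junb call was lost in any of the 15 fits that left out 1 array.

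The atf3 gene, whose protein is a stress-induced AP-1 family factor, read 6.76, 6.71 and 6.69 in controls. It read 6.46, 6.33 and 6.73 in adult 0.1 Gy livers and 6.49, 5.77 and 5.97 in adult 1.0 Gy livers. The controls lay within 0.1 of each other and 5 of the 6 adult arrays were below them all. The acute difference was -0.43 ± 0.16 (adjusted p = 0.04). This call was lost, with adjusted p up to 0.094 and differences between -0.53 and -0.35, in 7 of the 15 fits that left out 1 array, namely any of the 3 controls, replicate 1 or 2 of adult 0.1 Gy, or replicate 2 or 3 of adult 1.0 Gy.

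The remaining genes were not called in the acute comparison. For fosab, the Fos partner of Jun proteins, the differences over its probe sets ran from 1.06 to 1.50 with standard errors of 0.64 to 1.05. The 2 jun probe sets differed by -0.44 ± 0.30 and -0.32 ± 0.26 (adjusted p = 0.23 and 0.3), and the 2 egr1 probe sets by 0.44 ± 0.82 and 0.12 ± 0.28 (adjusted p = 0.66 and 0.72). For mycb the difference was 0.64 ± 0.64 (adjusted p = 0.39) with all arrays, and 1.90 (adjusted p = 0.00048, called) without control replicate 3. Without control replicate 1 the mycb difference was -0.20. The other Myc gene, myca, stayed between 3.65 and 4.18 on all 15 arrays, with a mean at percentile 26.9 of all probe sets, and differed by -0.02 ± 0.13.

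**Figure D2:**
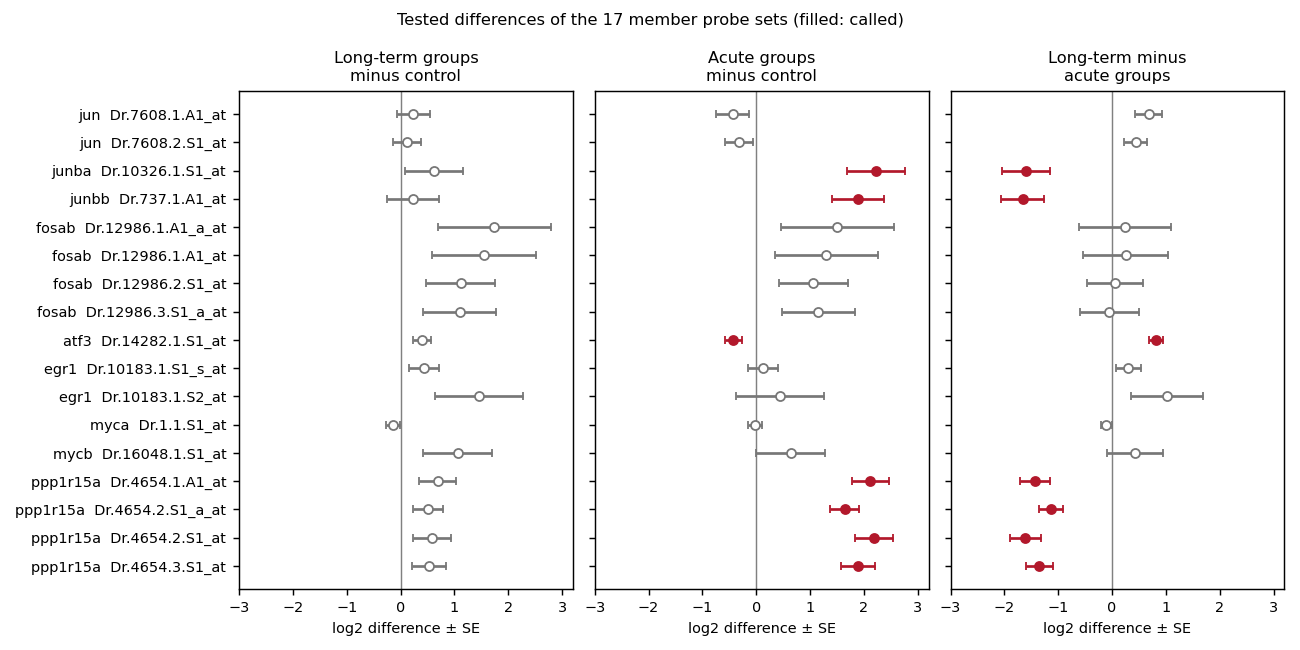
Log2 differences with their standard errors (horizontal axes) of the 17 probe sets in the long-term, acute and time comparisons; filled points were called. None was called in the long-term panel, while junba, junbb and ppp1r15a were called on opposite sides of 0 in the acute and time panels.

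In the long-term response groups none of the 17 probe sets was called with limma, against 21.2% of all tested (7.56% called higher and 13.7% called lower), and 1 (atf3) had an unadjusted p under 0.05. Of the 17 differences 16 were above 0, with a median of 0.59, compared with 0.042 over all tested. The largest were those of fosab (1.74 ± 1.05, adjusted p = 0.24), egr1 (1.46 ± 0.82, adjusted p = 0.21) and mycb (1.06 ± 0.64, adjusted p = 0.24). Each difference averages both doses, which did not always lie on the same side of the controls. The embryo 1.0 Gy mean was below the control mean for mycb (6.54 against 7.32), junbb (8.85 against 9.7) and every ppp1r15a probe set (4.84 against 5.64 on Dr.4654.2.S1_at). For these genes the embryo 0.1 Gy mean was above the control mean. Control replicate 3 raised these control means. By medians embryo 1.0 Gy was slightly above control for mycb (6.53 against 6.48) and ppp1r15a on Dr.4654.1.A1_at (5.96 against 5.93). It was below for junbb (8.71 against 9.23) and the other ppp1r15a probe sets. The absence of calls depended on control replicate 3, a pool with high mycb and ppp1r15a. It is titled a control, but its source name fits adult 0.1 Gy. On csrnp1a and slc3a2b it read 3.26 and 3.72, near control replicate 1 (3.22 and 3.27). The adult 0.1 Gy arrays read 5.04 or more and 5.19 or more there. On socs3a it read 8.12, further from control replicate 1 (5.25) and below the adult 0.1 Gy arrays (9.30 or more). Which entry is right was not tested. Without control replicate 3, limma called 3 probe sets higher. They were mycb (2.32, adjusted p = 0.00087) and the ppp1r15a probe sets Dr.4654.2.S1_at (1.13, adjusted p = 0.027) and Dr.4654.1.A1_at (1.11, adjusted p = 0.049). Over all 15 fits that left out 1 array, mycb ran from 0.22 to 2.32, with adjusted p up to 0.8. These ppp1r15a probe sets ran from 0.23 to 1.13 and from 0.45 to 1.11, with adjusted p up to 0.65 and 0.44. Without embryo 1.0 Gy replicate 1, atf3 was called higher (adjusted p = 0.045). For junbb the difference was 0.23 ± 0.49, and it was at or below 0, down to -0.23, without control replicate 1 or 2 or embryo 1.0 Gy replicate 3.

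The mycb values show where the controls mattered. Control arrays read 5.63, 6.48 and 9.84, a range wider than that between any 2 groups' means. Embryo 0.1 Gy arrays read 9.90, 10.29 and 10.46, embryo 1.0 Gy arrays 5.95, 6.53 and 7.14, adult 0.1 Gy arrays 8.78, 9.10 and 8.54, and adult 1.0 Gy arrays 7.21, 6.72 and 7.42. The embryo 0.1 Gy arrays all exceeded every other array. In the order of group means, embryo 0.1 Gy (10.22 ± 0.29) stood apart from adult 0.1 Gy (8.81 ± 0.28), and the controls (7.32 ± 2.22) overlapped every group but embryo 0.1 Gy.

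The long-term and acute responses themselves were compared by subtracting the mean of the adult groups from that of the embryo groups, which cancels the controls. Of the 17 probe sets 6 were called lower in the embryo groups (junba, junbb and the 4 of ppp1r15a), against 12.7% of all tested called lower. The 1 called higher was atf3, against 20.6% of all tested called higher. The difference was -1.60 ± 0.44 for junba (adjusted p = 0.011), -1.66 ± 0.40 for junbb (adjusted p = 0.005) and -1.61 ± 0.29 for ppp1r15a on Dr.4654.2.S1_at (adjusted p = 0.00068). These averages hide a split by dose. On that probe set ppp1r15a means were 7.61 (embryo 0.1 Gy) and 4.84 (embryo 1.0 Gy), against 8.22 (adult 0.1 Gy) and 7.44 (adult 1.0 Gy). The embryo 0.1 Gy mean was thus above the adult 1.0 Gy mean there. On the other ppp1r15a probe sets it was just below (7.97 against 8, 7 against 7.01 and 7.33 against 7.35). For junbb the means were 11.01 and 8.85 in the embryo groups and 11.9 and 11.28 in the adult groups, in the same order of dose. The atf3 arrays of the embryo 0.1 Gy group read 6.60, 6.90 and 6.56 and those of the embryo 1.0 Gy group 7.24, 7.57 and 7.82. The embryo 1.0 Gy arrays were above every other array, whereas the embryo 0.1 Gy arrays lay on both sides of the controls. The atf3 time difference was 0.82 ± 0.13 (adjusted p = 0.00029), and these 7 calls were kept in all 15 fits that left out 1 array. For jun on Dr.7608.1.A1_at the difference was 0.68 ± 0.25 (adjusted p = 0.043), and it was not called because the F-test over the groups had an adjusted p of 0.08. It was called without adult 0.1 Gy replicate 2.

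Dose within each response is described with no test, since these differences chose the genes. In the embryo groups 8 probe sets of 5 genes (junba, junbb, mycb, 1 of the 4 of fosab and all of ppp1r15a) had their 3 arrays at 0.1 Gy above their 3 at 1.0 Gy, and 2 (atf3 and 1 of jun) had them below. Over all tested probe sets these shares were 10.1% and 9.50%, and nothing is read from the counts. In the adult groups 2 probe sets (junbb and mycb) had their 0.1 Gy arrays above and 0 below, with shares over all tested of 9.52% and 9.27%. The median difference of the 17 (0.1 minus 1.0 Gy) was 1.52 in the embryo groups and 0.73 in the adult groups, compared with -0.0035 and -0.023 over all tested.

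Between the embryo groups mycb differed most, at 3.68 ± 0.74 (12.8-fold). Between the adult groups its difference was 1.69 ± 0.74 (3.23-fold). For ppp1r15a on Dr.4654.2.S1_at the embryo 0.1 Gy arrays read 7.88, 7.13 and 7.83 and the embryo 1.0 Gy arrays 4.86, 4.77 and 4.88. On this probe set the 1.0 Gy arrays lay within 0.2 of each other and below the lowest control, and the difference was 2.78 ± 0.40 (6.86-fold). On Dr.4654.1.A1_at the embryo 1.0 Gy arrays read 5.96, 5.96 and 6.1, all above the lowest control (5.83). On Dr.4654.2.S1_a_at and Dr.4654.3.S1_at they lay on both sides of the lowest control. The other ppp1r15a probe sets differed by 1.96, 1.52 and 1.93 between the embryo groups, and the 4 differed by 0.72 to 0.83 between the adult groups, where arrays of the 2 doses overlapped. When 1 array was left out the embryo difference of Dr.4654.2.S1_at ran from 2.64 to 3.02 and that of mycb from 3.38 to 3.98. The adult differences of ppp1r15a went down to 0.35 to 0.50 over the 4 probe sets, all without adult 0.1 Gy replicate 2 or adult 1.0 Gy replicate 3.

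The junbb arrays of the embryo groups read 11.41, 10.99 and 10.63 at 0.1 Gy and 7.81, 8.71 and 10.02 at 1.0 Gy. The 0.1 Gy arrays were close together and the 1.0 Gy arrays spread over more than 2 log2 units, with a difference of 2.17 ± 0.56 in the embryo groups and of 0.62 ± 0.56 in the adult groups. The junba arrays of the embryo groups read 8.09, 8.21 and 7.89 at 0.1 Gy and 7.52, 7.07 and 7.75 at 1.0 Gy. Their ranges were only just apart, with a difference of 0.62 ± 0.62, and the adult arrays overlapped with a difference of 1.60 ± 0.62. The order of the junba and junbb group means by dose was the same in both responses, 0.1 Gy above 1.0 Gy. Without adult 1.0 Gy replicate 3 the adult differences were 0.93 for junba and 0.28 for junbb, and without adult 1.0 Gy replicate 1 that of junba was 2.29. The embryo difference of junbb was 2.75 without embryo 1.0 Gy replicate 3.

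The atf3 and jun genes ran the other way in the embryo groups. For atf3 the embryo difference was -0.86 ± 0.19, and the adult one was 0.43 ± 0.19. For jun on Dr.7608.1.A1_at the arrays read 7.80, 7.95 and 8.17 at 0.1 Gy and 8.43, 8.41 and 9.45 at 1.0 Gy in the embryo groups. That difference was -0.79 ± 0.35, with all 1.0 Gy arrays above the 0.1 Gy arrays, and the adult groups differed by -0.03 ± 0.35. Without embryo 1.0 Gy replicate 3 the embryo difference of jun was -0.45. Without adult 1.0 Gy replicate 2 the adult difference of atf3 was 0.27.

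**Figure D3:**
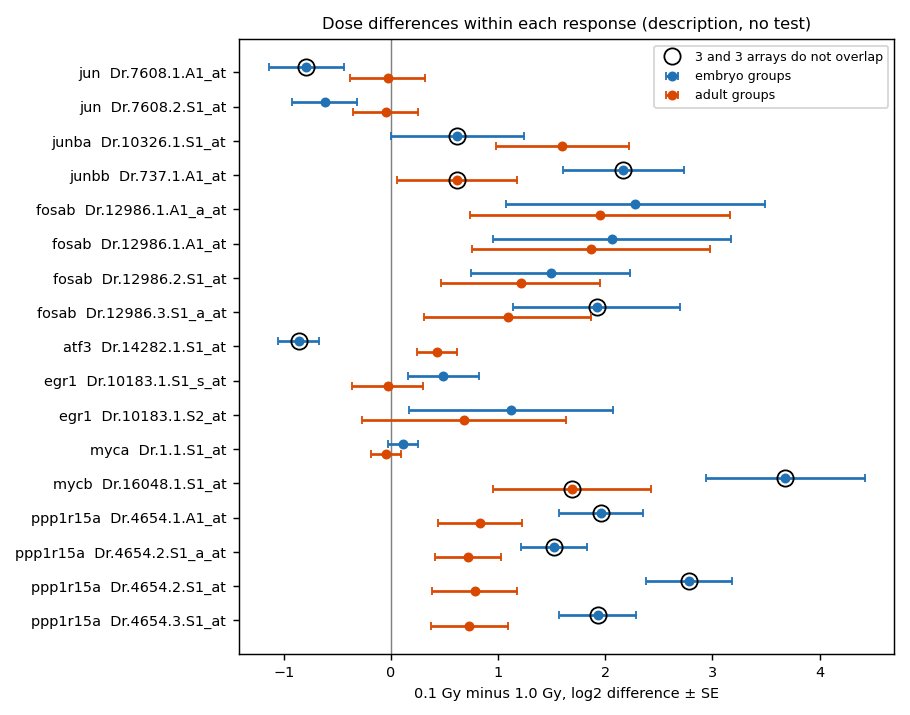
Log2 difference of the 0.1 Gy minus the 1.0 Gy group (horizontal axis, ± standard error of the fit) for the 17 probe sets, in the embryo and the adult groups; circles mark pairs of groups whose 3 and 3 arrays did not overlap. The mycb point of the embryo groups lies at 3.68, and those of atf3 and jun lie below 0.

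The fosab and egr1 genes varied widely within groups. On Dr.12986.1.A1_a_at fosab read 6.97, 5.37 and 8.75 in controls, 8.37, 10.25 and 11.11 in embryo 0.1 Gy, 5.57, 7.76 and 9.56 in embryo 1.0 Gy, 8.38, 11.70 and 8.44 in adult 0.1 Gy and 9.18, 7.66 and 5.83 in adult 1.0 Gy livers. All neighbouring groups overlapped, and the single highest array was adult 0.1 Gy replicate 2. Its residual SD within groups was 1.75, at percentile 99.9 of all tested, whose median was 0.179. Those of the other fosab probe sets were 1.06 to 1.61.

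On Dr.10183.1.S2_at egr1 read 6.33, 5.32 and 8.21 in controls, 7.60, 8.94 and 9.36 in embryo 0.1 Gy and 7.64, 6.70 and 8.20 in embryo 1.0 Gy livers. In the adult groups it read 6.59, 9.18 and 6.41 at 0.1 Gy and 7.75, 7.79 and 4.61 at 1.0 Gy. Again all neighbouring groups overlapped, with a residual SD of 1.36 (percentile 99.7). The residual SD was 1.06 for mycb, 0.898 for junba, 0.809 for junbb and 0.441 to 0.575 for ppp1r15a. It was 0.245 for atf3 and 0.177 for myca, the latter close to the median of all tested.

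Within a group the members tended to peak on the same array. In the control group replicate 3 was the highest array for 13 of the 17 probe sets, whereas it was the highest for 32.1% of all tested. Replicate 3 was also the highest for 13 in the embryo 0.1 Gy group (32.1% of all tested) and for 15 in the embryo 1.0 Gy group (32.4%), and replicate 2 for 15 in the adult 0.1 Gy group (34.8%). In the adult 1.0 Gy group replicate 1 was highest for 8 and replicate 2 for 7, while replicate 3 was lowest for 12. The labels do not tie a replicate number to shared fish or days. On control replicate 3 the mean of the leukocyte markers was 5.05, the lowest of the controls, that of the hepatocyte markers was 13.19 and that of the exocrine pancreas markers was 10.11. Adult 1.0 Gy replicate 3 had the highest mean of all arrays for muscle markers (7.56) and for exocrine pancreas markers (12.34). The muscle marker ckma read 9.46 on it, against 5.33 and 6.43 on adult 1.0 Gy replicates 1 and 2. The exocrine pancreas marker prss1 read 14.33 on it, against 11.13 and 12.95. The part of handling, sampling order or cell content in these peaks and lows, or in the adult dose differences, was not tested.

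**Figure D4:**
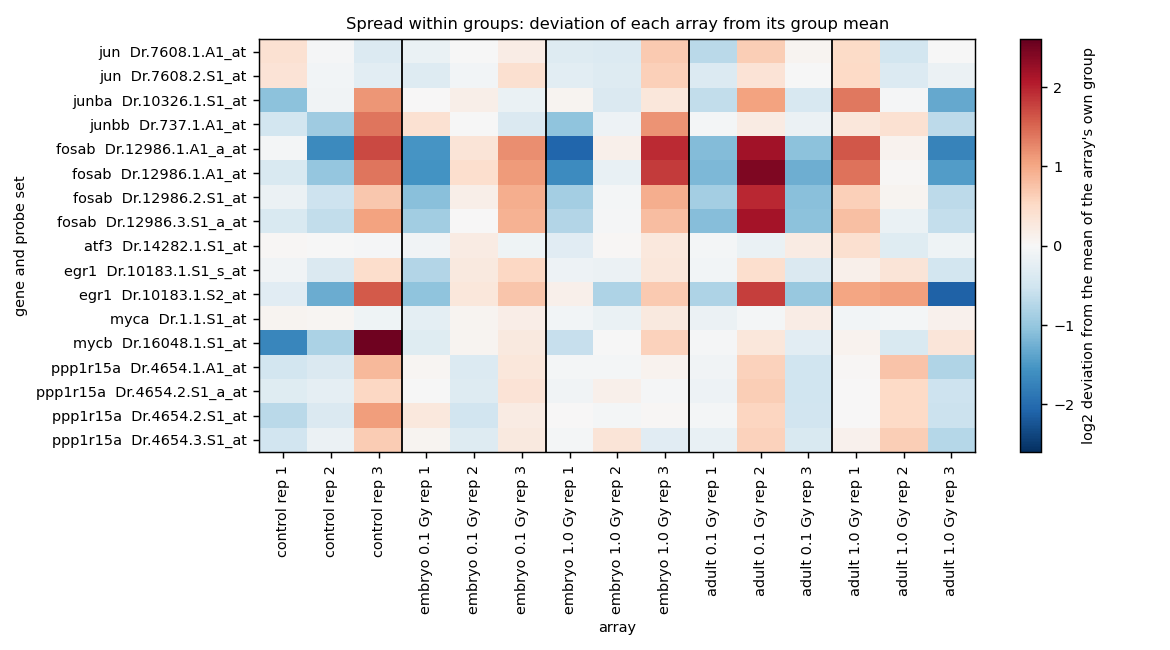
Deviation of each of the 15 arrays from the mean of its own group (colour, log2 units) for the 17 probe sets. Control replicate 3, embryo 1.0 Gy replicate 3 and adult 0.1 Gy replicate 2 are red for most of fosab, egr1 and the junb genes, and myca and atf3 are pale throughout.

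Other genes with the most similar profiles were looked for by the root mean square difference of centred log2 values over the 15 arrays, among 6442 probe sets. Closest to the 4 fosab probe sets were btg2, ier2a and jdp2b in each case (0.498 to 1.25, where the probe sets' own root mean square deviation was 1.15 to 1.83). The egr1 probe set Dr.10183.1.S2_at was closest to ier2a (0.719), jdp2b (0.848) and the kinase sik1 (0.892). All 4 ppp1r15a probe sets were closest to zgc:162730 (0.389 to 0.485), and nfkbiab, which encodes an inhibitor of NF-κB, was among the 3 nearest of each. The same zgc:162730 was nearest to junbb (0.532), followed by nfkbiab (0.584) and tsc22d3 (0.586), a glucocorticoid-induced gene in mammals. For mycb the nearest were gadd45ba (0.815), socs1a (0.886) and btg2 (0.926). For junba they were si:ch73-335l21.4 (0.651), the phosphatase dusp2 (0.669) and zgc:162730 (0.68). Among the members, junbb and ppp1r15a were nearest to each other (0.546), as were fosab and egr1 (0.81).

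The nearest genes of jun were si:dkey-177p2.6, clk4a and pik3r1 on one probe set (0.305 to 0.353) and lmbr1l, sh2d5 and pik3r1 on the other (0.26 to 0.294). Those of egr1 on Dr.10183.1.S1_s_at, whose suffix marks probes that can match several transcripts, were sult4a1, mrpl30 and zc3h14 (0.319 to 0.325), against an own deviation of 0.442. For atf3 and myca no search was made, because their interquartile ranges were 0.353 and 0.222, under the minimum of 0.5 set for it.

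Genes that work with the members were then read from the same fit. Of 56 other immediate early genes listed, 45 were measured, and 42 of their 52 probe sets were tested. In the acute comparison 15 were called higher and 2 lower (of all tested, 14.6% and 25.0%), with a median of 0.52 against 0.011 over all tested. They included pim1, a survival kinase (1.89 ± 0.15, adjusted p = 7.1e-07), mcl1a, an anti-apoptotic Bcl-2 family gene (1.32 ± 0.12, adjusted p = 2e-06), dusp6, a phosphatase of ERK kinases (1.35 ± 0.19, adjusted p = 9.1e-05), and btg1, an antiproliferative gene (0.96 ± 0.13, adjusted p = 6.8e-05). In the long-term comparison, where 7.56% of all tested were called higher and 13.7% lower, 5 of the 42 were called higher, among them pim1 (0.98 ± 0.15) and mcl1a (0.94 ± 0.12), and 2 lower, among them klf2b (-0.71 ± 0.16), a Krüppel-like factor. With arrays weighted by their quality that count of 5 higher and 2 lower became 14 and 5, while long-term calls over all probe sets rose from 1832 to 3907. Fewer of the 42 were called without the 4 arrays of conflicting source name. That fit keeps a single control array, and calls over all probe sets fell in it too. Between the responses 16 were lower in the embryo groups and 1 higher (of all tested, 12.7% and 20.6%), with csrnp1a at -1.90 ± 0.26 and dusp6 at -1.45 ± 0.16. The other dusp6 probe set differed by only 0.3 ± 0.11 in the acute comparison and -0.2 ± 0.09 between the responses, and was called in neither.

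Among 5 tested probe sets of AP-1 partners, maff, a small Maf protein gene, rose in the acute groups (1.48 ± 0.23, adjusted p = 0.00016). Its long-term difference was 0.67 ± 0.23 (adjusted p = 0.048), a call lost in 9 of the 15 fits that left out 1 array, with adjusted p up to 0.2. Between the responses fosl2, a Fos-related gene, was lower in the embryo groups (-1.36 ± 0.35, adjusted p = 0.0072). Of 12 probe sets of MAP kinases and the factors they act on, 3 were called higher in the acute groups, all of mapk14b, and 2 lower (of all tested, 14.6% and 25.0%). Fewer were called without the 4 arrays of conflicting source name, as was the case over all probe sets. The difference was -1.05 ± 0.11 for mapk14a and 1.21 ± 0.16 for mapk14b on its leading probe set. Both encode p38 kinases.

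Of 19 tested probe sets of the integrated stress response, 4 were called higher and 5 lower in the acute groups (median -0.07), where 14.6% of all tested were called higher and 25.0% lower, so the share called lower was near the background. The long-term groups had 7 called lower and 0 higher (median -0.14, with 13.7% of all tested called lower). Both responses had fewer calls without the 4 arrays of conflicting source name, as was the case over all probe sets. The atf4a gene, which encodes the central activator of this response, fell in the acute groups (-0.64 ± 0.09, adjusted p = 0.00011), as did asns (-0.66 ± 0.12), an asparagine synthetase, and mthfd2 (-1.11 ± 0.16), a mitochondrial folate enzyme, whereas slc3a2b, an amino acid transporter subunit, rose (1.71 ± 0.28, adjusted p = 0.00024). Of 15 tested probe sets of eIF2 kinases, eIF2, its exchange factor and protein phosphatase 1, 1 was higher and 7 lower in the acute groups (of all tested, 14.6% and 25.0%). Fewer were called without those 4 arrays. The 3 probe sets of the eIF2 kinase gene eif2ak3 (PERK) disagreed. One was called lower (-1.17 ± 0.20, adjusted p = 0.00036), whereas the others differed by 0.23 ± 0.12 and 0.08 ± 0.13 (adjusted p = 0.14 and 0.63) and were not called. Lower calls were also made for dnajc3b (-0.89 ± 0.13), whose mammalian relative inhibits such kinases, and eif2b4 (-0.82 ± 0.16), a subunit of the exchange factor. The phosphatase gene ppp1cb rose (0.65 ± 0.10, adjusted p = 0.00018). In the long-term groups 1 of these 15 was higher and 5 lower (of all tested, 7.56% and 13.7%), among them ppp1cab (-0.74 ± 0.15, adjusted p = 0.0034, limma). Again fewer were called without the 4 arrays.

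Of 7 tested probe sets of the Myc network, 1 (myclb, -0.43 ± 0.16, adjusted p = 0.043) was called lower in the acute groups and 0 higher (of all tested, 25.0% and 14.6%). In the long-term groups 0 were called, against 21.2% of all tested. With 7 probe sets nothing is read from these counts. The myclb call was lost in 7 of the 15 leave-one-out fits, those lacking replicate 1 or 2 of the control, replicate 1 of embryo 0.1 Gy, replicate 1 or 3 of adult 0.1 Gy, or replicate 1 or 2 of adult 1.0 Gy, with differences of -0.57 to -0.22 and adjusted p up to 0.25. Of 22 tested probe sets of Myc target genes, 12 were called lower and 0 higher in the acute groups (of all tested, 25.0% and 14.6%), with a median of -0.38. The 12 became 5 when the filter on the interquartile range was raised to 0.5, which also takes probe sets out of testing. Fewer were called without the 4 arrays of conflicting source name, as was the case over all probe sets. The 12 included the cyclin ccnd1 (-1.26 ± 0.16), cad, an enzyme of pyrimidine synthesis (-0.77 ± 0.16), and nolc1, a nucleolar gene (-1.05 ± 0.24). In the long-term groups 5 of the 22 were lower and 0 higher (of all tested, 13.7% and 7.56%). The interquartile ranges of these 5 were below 0.5, so the stricter filter left them untested. Without the 4 arrays fewer were called. In the long-term comparison with all arrays nolc1 was at -1.02 ± 0.24 and eif4a1a, a translation helicase, at -0.83 ± 0.13. The nolc1 calls of both responses, and the long-term call of cad, were lost without control replicate 2 or 3, with long-term differences then as small as -0.80 and -0.46. Without the 4 arrays nolc1 was at -0.13 (long-term) and -0.08 (acute) and cad at -0.19 and -0.32, none of them called. Of 11 heat shock probe sets 5 were lower and 1 higher in the acute groups (of all tested, 25.0% and 14.6%), and fewer were called without the 4 arrays. The chaperonin gene hspd1 was at -1.63 ± 0.17 and the co-chaperone gene dnajb1b at -1.54 ± 0.23.

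**Figure D5:**
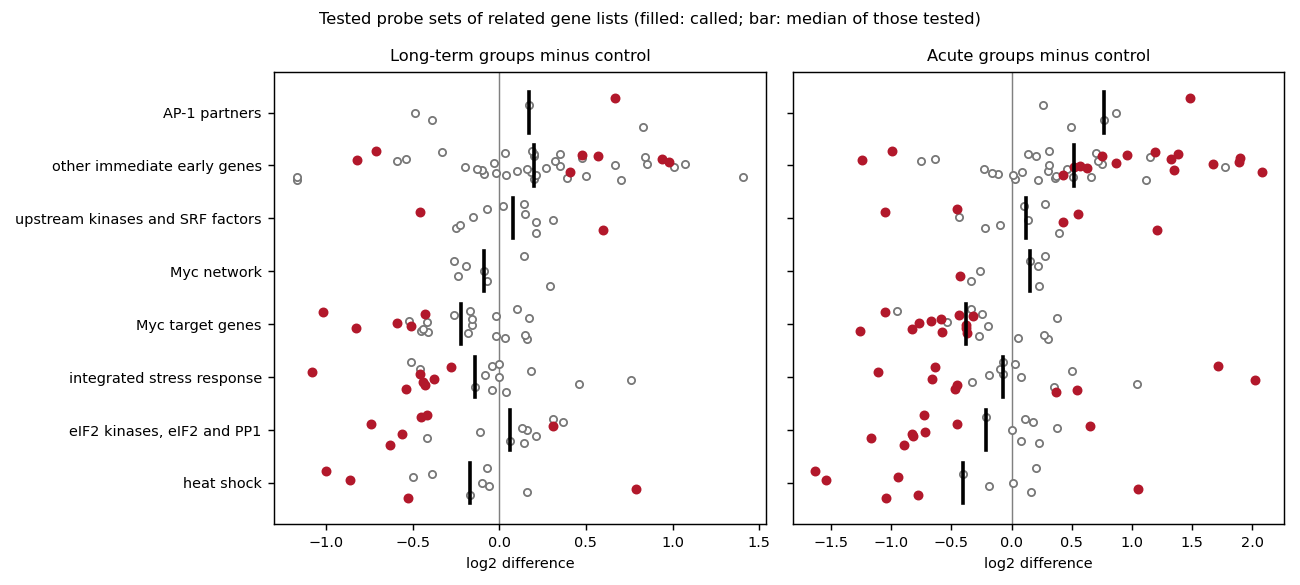
Log2 differences (horizontal axes) of the tested probe sets of 8 related gene lists in the long-term and acute comparisons; filled points were called and bars mark the median of those tested. In the acute panel the median of the other immediate early genes lies at 0.52 and that of the Myc target genes at -0.38.

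Some marker probe sets of other cells were also called in the acute groups, in which ppp1r15a and the junb genes were higher. Of 14 tested probe sets of leukocyte markers 5 were called higher and 0 lower (of all tested, 14.6% and 25.0%), with the matrix metalloproteinase gene mmp9 at 0.77 ± 0.12, and the mean over all 19 leukocyte probe sets was 5.05 to 5.30 in controls, 5.41 to 5.44 in adult 0.1 Gy and 5.27 to 5.48 in adult 1.0 Gy livers. Of 10 biliary and stellate probe sets 2 were higher, a probe set of anxa4 at 2.56 ± 0.40 and krt18a.1 at 0.40 ± 0.10. The anxa4 probe sets disagreed, since the other differed by only 0.18 ± 0.15 (adjusted p = 0.31, limma) and was not called. Of 9 erythrocyte probe sets 1 was higher, of 13 muscle, 14 exocrine pancreas, 2 intestine and 2 endothelial probe sets none was called, and of 8 hepatocyte probe sets 1 was higher (hpxa, 0.21 ± 0.08). With 14.6% of all tested called higher, nothing is read from these small counts. The part of such cells in the member differences was not tested.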

How the data were processed

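Liver RNA of 15 pools of 2 male zebrafish was hybridized to GeneChip Zebrafish Genome Arrays. The authors checked the arrays with probe-level models and deposited log2 expression per probe set after quantile normalization and Robust Multiarray Average (RMA), whose versions are not given in the sources used here. Quantile normalization forces the arrays to a common distribution, so values are relative to it. The values were used as deposited. Of 15617 probe sets, 115 manufacturer controls were left out, 10795 of the rest had a single symbol, 135 had several and 4572 had none. As in the study's methods, a filter on the interquartile range was set at 0.2, and group means were fitted with limma 3.58.1 in R 4.3.3 (two-sided moderated tests, Benjamini-Hochberg adjustment over all tested). The filter kept 8634 probe sets. The study reports its comparisons over a smaller number, so the counts and shares given here are not those of the study. The F-test over the 5 groups passed for 4352. Levels of different probe sets were not compared, and the number of arrays limits the precision. The steps were tested on simulated data. The members and gene lists, and the rules for named genes, were chosen with earlier results of these data known. Named list genes were at most 4 called per list and comparison, by adjusted p, and genes of a similar profile were the 3 nearest. Alternatives covered the filter, the F-test, normalization, array weights, the variance trend, a replicate block and each array left out.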

Additional observations from a re-analysis of the deposited data

Results flagged for a closer look

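The long-term and acute responses differed in limma's direct test of embryo minus adult groups for 7 of the 17 probe sets, which is what marked them for a closer look. On the log2 scale the difference was -1.60 for junba, -1.66 for junbb and 0.82 for atf3. For ppp1r15a it was -1.43 on Dr.4654.1.A1_at, -1.13 on Dr.4654.2.S1_a_at, -1.61 on Dr.4654.2.S1_at and -1.35 on Dr.4654.3.S1_at. The 4 ppp1r15a values come from the same RNA. Groups of 3 arrays are too small for the outlier test, so the high control replicate 3 was not assessed by it.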

How the results depend on the processing

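The count of 0 member probe sets called in the long-term comparison became 3 with array weights (fosab on 2 probe sets and atf3) and 1 without the 4 arrays of conflicting source name (mycb, 2.75), and ran from 0 to 3 when 1 array was left out. In the fit with array weights control replicate 2 had a weight of 2.66, against 0.354 and 1.22 for control replicates 1 and 3. Its fosab value was the lowest of the controls (5.37 on Dr.12986.1.A1_a_at). The acute and time counts, each 7, ran from 6 to 7 and from 7 to 8 when 1 array was left out. Without the 4 arrays the control is a single array assumed to vary like the others. In that fit junba was called in neither comparison (3.08 acute and -1.39 time), because it did not pass the F-test. The acute call of atf3 was lost (-0.36) and an acute call of mycb was gained (2.20). The acute call of atf3 was also lost with no filter, with repeated quantile normalization (-0.31) and with the replicate block. With an interquartile range of at least 0.5 the calls over all probe sets were 652 long-term, 1367 acute and 1375 time, compared with 1832, 3417 and 2875. That filter also leaves fewer probe sets to test. Over all probe sets, array weights gave 3907 long-term calls, and omission of the 4 arrays gave 111 long-term and 1197 acute calls. Some differences changed sign. Without the 4 arrays jun was -0.15 and -0.24 (long-term), myca 0.01 (acute) and fosab on Dr.12986.3.S1_a_at 0.48 (time), which was 0.01 with array weights, and dnajb1a, a heat shock co-chaperone gene called lower at -0.53 in the long-term comparison, was 0. When 1 array was left out, ranges crossing 0 were -0.23 to 0.93 (junbb) and -0.03 to 0.31 (jun on Dr.7608.2.S1_at) in the long-term comparison. In the acute comparison they were -0.06 to 0.35 and -0.21 to 1.23 (egr1), -0.08 to 0.01 (myca, in the 11 fits that kept it) and -0.20 to 1.90 (mycb). In the time comparison the fosab ranges were -0.24 to 0.79, -0.20 to 0.86, -0.22 to 0.55 and -0.32 to 0.49. Of 74 named differences of listed genes, 56 kept their call in each fit that left out 1 array and kept the gene. Deviations of same-numbered arrays correlated above 0.1 in 4 of 30 pairs (correlations of -0.29 to 0.18). Differently numbered pairs were not examined, so these values do not decide whether a number marks shared handling. With a replicate block 0, 6 and 7 member probe sets were called in the long-term, acute and time comparisons.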
